A study of Mus musculus with 18 samples.

Results

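A set of 40 genes that mark regions of the mouse brain was followed in the brain libraries of a study of chronic restraint stress, to read which regions each library holds before any statement on stress. The genes were chosen with earlier results of these data known. Taken by symbol, each of the 40 matched 1 row of a table of 34932 genes. They comprise 7 markers of striatum, 6 of hippocampus, 6 of cortex, 4 of thalamus, 8 of hypothalamus and 9 of the choroid plexus. RNA came from brain, liver and testis of control mice and of mice exposed to chronic restraint, a stressor that repeatedly immobilises the animal, with 3 libraries in each of the 6 groups. The labels name the tissue as brain, while their extraction protocol speaks of hippocampus, and strain, sex, age and length of restraint are not stated in the labels. The series text calls the 3 libraries of a group biological replicates, without saying whether tissue was pooled or whether the 3 tissues came from the same animals. The description of stress replicate 3 of brain carries a control prefix in its code, and its title, treatment and table column say stress.

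Neurons of a brain region carry their own set of transcription factors, receptors and peptides, so the RNA of a dissected piece reflects which regions were in it. The striatum consists mainly of spiny projection neurons with dopamine receptors, the cortex is built of layers with distinct transcription factors, and the hypothalamus holds small groups of neurons that make peptide hormones. The choroid plexus is an epithelium inside the ventricles that secretes cerebrospinal fluid, and its cells make transthyretin in very large amounts. In RNA from whole tissue, fewer cells of a type and less RNA per cell cannot be told apart.

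Brain libraries held 32.08 to 36.5 megacounts each. Levels are given in TPM, which corrects for gene length and scales each library to the same total, so that genes can be compared. Where 6 values stand together, the first 3 are control replicates 1, 2 and 3 and the last 3 are stress replicates 1, 2 and 3. Of the 40 genes, 21 were higher in every brain library than in any liver or testis library. The sums of 8 neuron markers lay between 4024 and 4829 TPM in the 6 brain libraries, and those of 6 hepatocyte markers between 2.84 and 6.36 TPM.

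The regional markers differed widely between libraries of the same group. Striatal markers were high in control replicate 3 and stress replicate 3, and hypothalamic peptide genes in stress replicate 3. Choroid plexus markers were high in stress replicates 2 and 3, and cortical markers highest in control replicate 1. The summed level of the region's markers differed between the highest and the lowest library by 12.4-fold for striatum, 20.8-fold for hypothalamus and 8.60-fold for choroid plexus. The hypothalamic and choroid plexus ratios depended on the measure. As log2 ratios they were 4.38 and 3.11 in TPM, 3.97 and 1.92 in CPM, and 3.58 and 1.89 by the median deviation of the region's genes. For hippocampus, cortex and thalamus the ratio in TPM was 1.40, 1.92 and 1.65. Without Ttr the choroid plexus ratio was 1.43, but most of that sum is Enpp2, with 173 to 227 TPM. Single choroid plexus genes of lower level varied more, such as Prlr 10.4-fold, Sostdc1 6.21-fold, Kcnj13 5.18-fold and Kl 5.08-fold. The hippocampal sum is mostly Dkk3 and Wfs1, while C1ql2 ranged 23.2-fold. The range among the 3 control libraries exceeded the size of the stress difference in 26 of the 35 markers that could be tested (74.3%), against 81.3% of all genes tested.

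**Figure D1:**
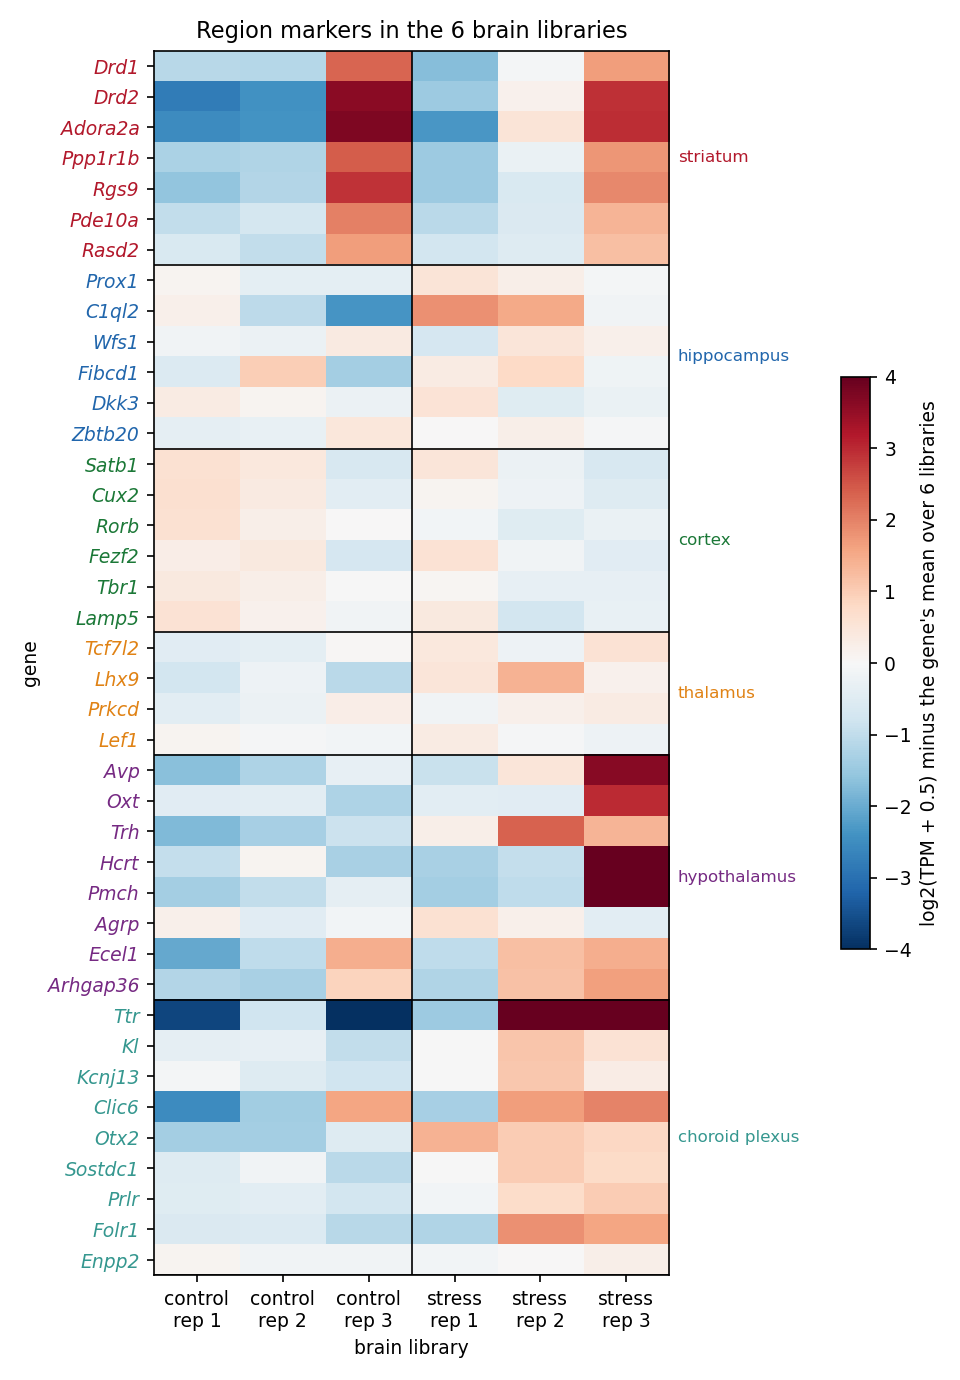
Rows are the 40 genes, coloured and grouped by region, and columns are the 6 brain libraries. Colour gives log2(TPM + 0.5) minus the gene's mean over the 6 libraries, limited to 4 in either direction. The striatal rows are high in both replicates numbered 3, and the rows of Ttr, Folr1 and Sostdc1 are high in stress replicates 2 and 3.

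Among the striatal markers, Drd2 and Adora2a varied most. Drd2 (ENSMUSG00000032259), the dopamine receptor of the indirect pathway neurons, had 1.29, 1.82, 152, 4.08, 13.6 and 94.96 TPM. Its level in control replicate 3 was thus 117.5-fold that in control replicate 1, and the groups overlapped. Adora2a (ENSMUSG00000020178), the adenosine receptor of the same neurons, had 2.57, 2.81, 229, 2.995, 24.6 and 134.9 TPM, an 89.1-fold range among controls. Drd1 (ENSMUSG00000021478), the dopamine receptor of the direct pathway neurons, had 10.1, 9.88, 115, 6.46, 21.3 and 72.7 TPM.

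The signalling proteins of striatal neurons followed the receptors. Ppp1r1b (ENSMUSG00000061718), which encodes the phosphatase inhibitor DARPP-32 of dopamine signalling, had 80.2, 83.5, 1054, 71.2, 161 and 666 TPM. Rgs9, a regulator of G protein signalling, had 6.17, 8.30, 147.5, 6.71, 12.7 and 75.8 TPM. Pde10a, a phosphodiesterase of cyclic nucleotides, ranged from 21.03 TPM in stress replicate 1 to 184 TPM in control replicate 3. Rasd2, the small GTPase Rhes, ranged from 57.2 TPM in control replicate 2 to 359.5 TPM in control replicate 3. All 7 striatal markers were highest in control replicate 3 and next highest in stress replicate 3. Stress replicate 2 lay between these and the other 3 libraries for all 7.

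Other striatal genes, from a list of 11 that were not among the 40, showed the same order, with 11 of 11 highest in control replicate 3. Penk, which encodes the enkephalin precursor, had 36.9, 63.2, 1179, 69.7, 224.5 and 738.5 TPM. Gng7 and Adcy5, a G protein subunit and an adenylyl cyclase, ranged from 77.3 to 525.6 TPM and from 71.9 to 374 TPM. Oligodendrocyte markers moved with these genes in part. The sum of 8 of them was 3113 TPM in control replicate 3, 2942 TPM in stress replicate 3 and 1328 to 2593 TPM in the other 4 libraries. Their part in the striatal differences was not tested.

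**Figure D2:**
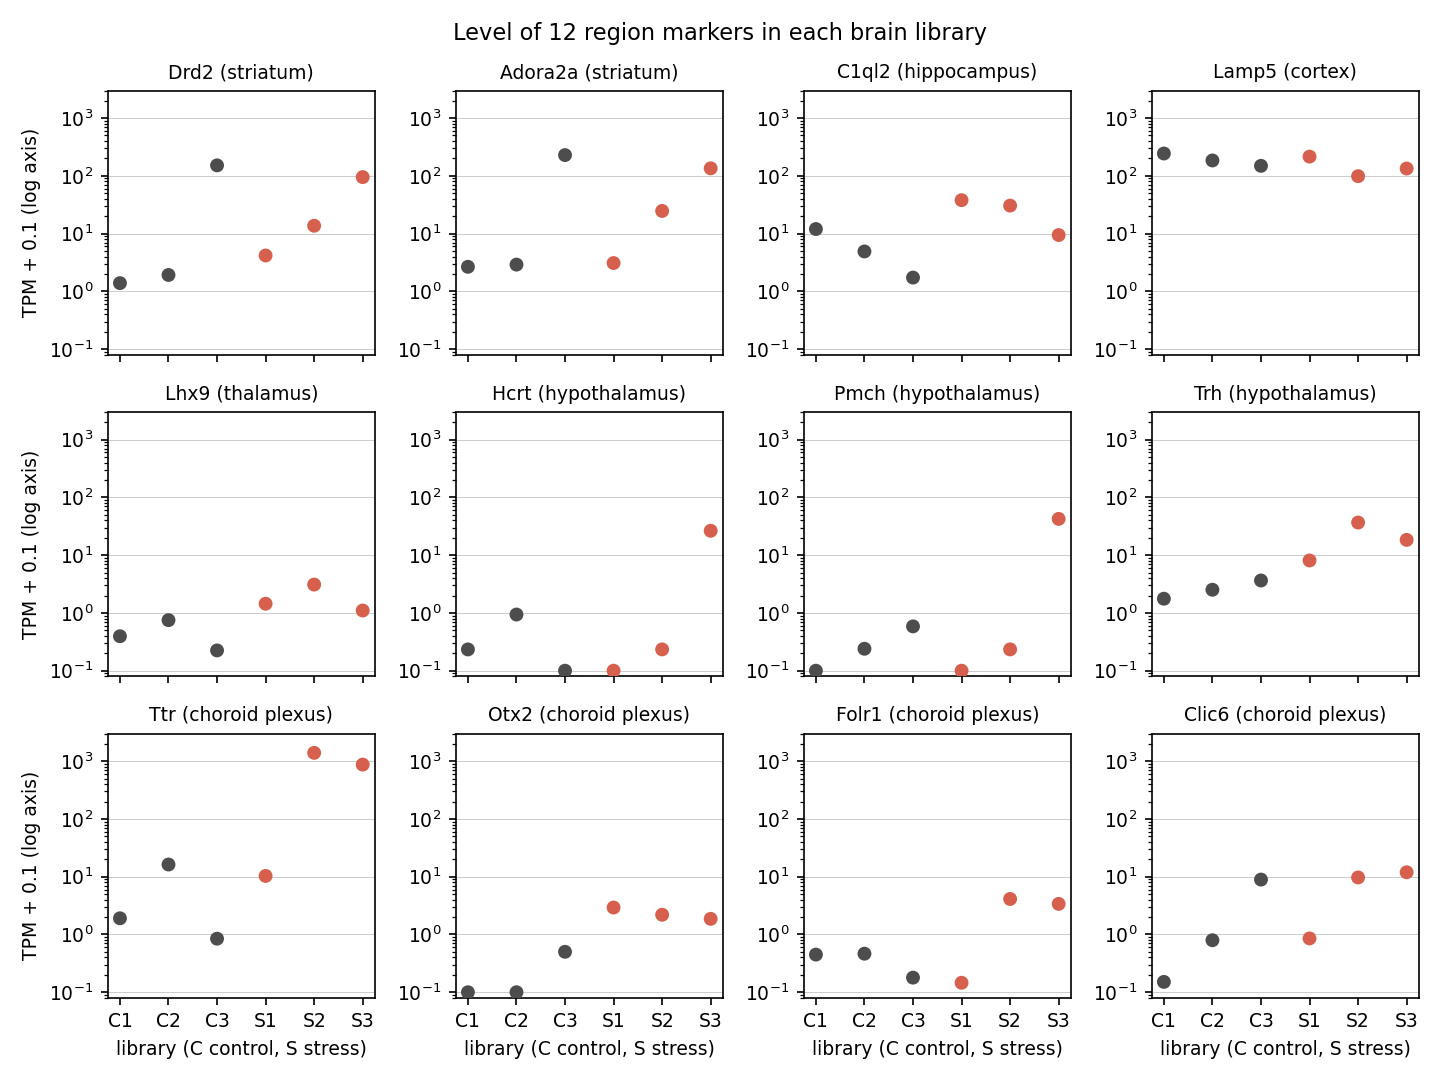
Each panel is 1 gene, with the library on the horizontal axis and TPM + 0.1 on a log axis, control in grey and stress in red. Drd2 and Adora2a are high in C3 and S3, Hcrt and Pmch in S3, Ttr and Folr1 in S2 and S3, and Otx2 in all 3 stress libraries.

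Cortical markers were present in every brain library, with sums from 275 to 529 TPM. Lamp5 (ENSMUSG00000027270), a membrane protein of cortical neurons, had 243, 185, 149, 215, 98.6 and 134 TPM. Tbr1 (ENSMUSG00000035033), the transcription factor of deep layer neurons, had 103, 91.8, 77.3, 83.02, 63.0 and 62.3 TPM. Fezf2, a factor of subcortically projecting neurons, had 70.9, 76.6, 36.8, 88.3, 53.2 and 42.6 TPM. Lamp5 was lowest in stress replicate 2, Tbr1 in stress replicate 3 and Fezf2 in control replicate 3.

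The factors of the upper and middle cortical layers had the same tendency. Cux2, a factor of upper layers, ranged from 28.7 TPM in stress replicate 3 to 64.5 TPM in control replicate 1. Satb1 ranged from 13.4 to 32.3 TPM between the same libraries. Rorb, a nuclear receptor of the layer that receives thalamic input, had 15.5, 11.6, 9.94, 9.07, 6.96 and 8.17 TPM, and its groups did not overlap. Of the 6 cortical markers, 5 were highest in control replicate 1 and 1, Fezf2, in stress replicate 1. Among 14 further cortical genes, 5 were highest in control replicate 1 and 2 in control replicate 2. Control replicate 3 and stress replicate 1 were highest for 3 each, and stress replicate 3 for 1. Mef2c, a transcription factor of excitatory neurons, ranged from 224 TPM in control replicate 3 to 453 TPM in control replicate 1. Rasgrf2 was also highest in control replicate 1, with 88.98 TPM. Bcl11b was highest in control replicate 3, with 83.9 TPM, and Sulf2 in stress replicate 1, with 70.3 TPM.

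The hippocampal markers did not move as one set. C1ql2 (ENSMUSG00000036907), a secreted synaptic protein of dentate granule cells, had 11.9, 4.81, 1.63, 37.8, 30.5 and 9.35 TPM, a 23.2-fold range with overlapping groups. Prox1 (ENSMUSG00000010175), the transcription factor of the same cells, had 8.71, 6.11, 6.04, 11.8, 9.74 and 7.76 TPM. Both were highest in stress replicate 1 and lowest in control replicate 3. Fibcd1, a membrane receptor found in CA1 neurons, had 17.1, 50.8, 9.59, 32.2, 44.5 and 22.7 TPM and was highest in control replicate 2.

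The remaining hippocampal genes are also active in other regions. Wfs1, the endoplasmic reticulum protein wolframin, ranged from 84.6 to 191 TPM, Dkk3, a secreted glycoprotein, from 261 to 541 TPM, and Zbtb20, a zinc finger factor, from 9.001 to 15.97 TPM. Of 14 further hippocampal genes, 6 were highest in stress replicate 1 and 6 in stress replicate 2. Neurod6 and Neurod2, transcription factors of excitatory forebrain neurons, ranged from 85.2 to 147 TPM and from 86.2 to 122 TPM.

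**Figure D3:**
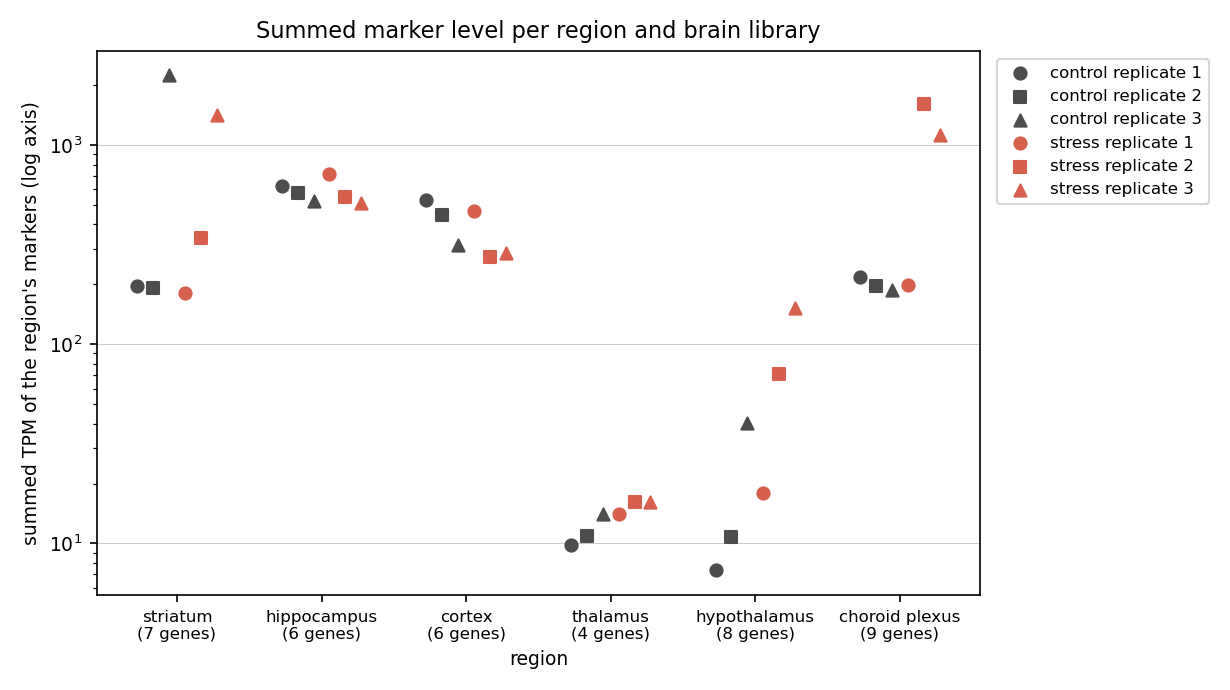
Each point is the summed TPM of a region's markers in 1 brain library on a log axis, with control in grey and stress in red and the marker shape giving the replicate number. The striatal sum ranges from 180 to 2241 TPM, whereas the cortical sum stays between 275 and 529 TPM.

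Thalamic markers were low in all libraries, with sums between 9.85 and 16.2 TPM. Lhx9 (ENSMUSG00000019230), a LIM homeobox factor of the developing thalamus, had 0.295, 0.650, 0.124, 1.34, 2.997 and 1.001 TPM, from 13 to 284 counts, and its groups did not overlap. Tcf7l2, a Wnt pathway factor that defines thalamic neurons, had 1.26, 1.32, 1.97, 2.70, 1.58 and 3.05 TPM with overlapping groups. Prkcd, a protein kinase C of thalamic relay neurons, ranged from 5.94 to 10.4 TPM, and Lef1, a Wnt pathway factor also active in brain endothelium, from 1.78 to 2.80 TPM. Of 15 further genes of thalamus and habenula, 4 were highest in control replicate 3 and 4 in stress replicate 1. Each other library was highest for 1 or 2 of them. Among these genes, Calb2, the calcium-binding protein calretinin, had 24.8, 24.95, 30.4, 37.9, 75.7 and 68.3 TPM. Slc17a6, the vesicular glutamate transporter of subcortical neurons, had 31.0, 23.6, 10.5, 52.5, 33.8 and 24.2 TPM.

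Hcrt, Pmch, Avp and Oxt, all peptide genes of the hypothalamus, were each highest in stress replicate 3 and near 0 in most other brain libraries. Hcrt (ENSMUSG00000045471) encodes orexin and Pmch (ENSMUSG00000035383) melanin-concentrating hormone, both made by neurons of the lateral hypothalamus. Hcrt had 1, 6, 0, 0, 1 and 191 counts, and its level in stress replicate 3 was 32.2-fold that in the next library (95% interval 14.5 to 88.7, counting error only). Pmch had 0, 1, 4, 0, 1 and 307 counts, an 86.2-fold lead over the next library (33.3 to 318). In TPM these were 26.3 for Hcrt and 42.3 for Pmch in stress replicate 3 and at most 0.838 and 0.485 elsewhere. For a count of 0, the exact 95% interval reaches 3.69 counts.

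Peptide hormones of the large hypothalamic neurons followed the same library. Avp (ENSMUSG00000037727), vasopressin, had 0, 1, 5, 2, 10 and 108 counts, an 11.6-fold lead over the next library (6.05 to 24.8). Oxt (ENSMUSG00000027301), oxytocin, had 2, 2, 0, 2, 2 and 46 counts, a 23.0-fold lead (6.03 to 196). Agrp, a feeding peptide of the arcuate nucleus, did not follow and had 14 to 35 counts in all 6 libraries, highest in stress replicate 1.

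Trh, Ecel1 and Arhgap36 had other patterns. Trh (ENSMUSG00000005892), thyrotropin-releasing hormone, had 1.66, 2.42, 3.54, 7.997, 36.6 and 18.3 TPM, and its groups did not overlap. Ecel1, a membrane peptidase of neurons, had 2.23, 5.11, 30.5, 5.18, 25.5 and 30.4 TPM, and Arhgap36, a regulator of hedgehog signalling, had 0.380, 0.306, 3.19, 0.370, 3.98 and 5.80 TPM. Both were high in control replicate 3 and in stress replicates 2 and 3, so their groups overlapped. Of 16 further hypothalamic genes, 9 were highest in stress replicate 3, and Cartpt, a feeding peptide, was highest in control replicate 3 with 84.97 TPM. Hap1, a huntingtin-associated protein abundant in hypothalamus, had 114, 156, 195, 144, 374 and 287 TPM, and Baiap3, a protein of peptide secretion, had 4.32, 6.84, 19.4, 8.17, 34.96 and 43.8 TPM. Npy, which cortical interneurons also make, stayed between 274 and 377 TPM.

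Choroid plexus markers set 2 stress libraries apart. Ttr (ENSMUSG00000061808), the transport protein transthyretin, had 1.81, 16.1, 0.745, 10.2, 1390 and 871 TPM. Stress replicate 1 thus lay within the control range and the groups overlapped. Liver also makes transthyretin, with 7708 to 13870 TPM there. Alb, the albumin gene of hepatocytes, was at 0 to 0.303 TPM in the brain libraries, and the part of liver RNA in the Ttr values was not tested. Folr1 (ENSMUSG00000001827), the folate receptor of the choroid plexus, had 8, 8, 2, 1, 92 and 73 counts.

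A channel and signalling genes of the choroid plexus were also highest in stress replicates 2 and 3. Kl (ENSMUSG00000058488), the anti-ageing hormone klotho, had 3.35, 3.46, 1.99, 4.33, 10.1 and 6.91 TPM. Kcnj13, a potassium channel, had 1.89, 1.24, 0.929, 1.99, 4.81 and 2.60 TPM, and Sostdc1, a secreted inhibitor of BMP and Wnt signals, had 1.49, 2.03, 0.830, 2.29, 5.15 and 4.25 TPM. Prlr (ENSMUSG00000005268), the prolactin receptor, had 0.306, 0.341, 0.172, 0.550, 1.39 and 1.78 TPM. For these 4 genes every stress library lay above every control library, with stress replicate 1 nearest to the controls.

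The other 3 choroid plexus markers had other orders. Clic6, a chloride channel protein, had 0.0511, 0.695, 8.82, 0.754, 9.599 and 11.8 TPM and was high in the same 3 libraries as Ecel1 and Arhgap36. Otx2 (ENSMUSG00000021848), a homeobox factor needed to form the choroid plexus, had 0, 0, 15, 91, 71 and 58 counts. It was thus highest in stress replicate 1, where Folr1 had 1 count. Enpp2, the enzyme autotaxin, which oligodendrocytes also make, stayed between 173 and 227 TPM. Among 20 further choroid plexus genes, 12 were highest in stress replicate 2 and 4 in stress replicate 3, and Slc29a4, a monoamine transporter, had 7.82, 7.95, 7.94, 11.5, 28.7 and 20.2 TPM. Ependymal markers, of the cells that line the ventricles, summed to 17.6, 25.6, 33.8, 14.7, 39.0 and 46.2 TPM, and their part in the choroid plexus differences was not tested.

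Otx2 protein is known to bind the letters TAATCC, so promoter windows of 300 bases around the gene start were searched for them on both strands. RefSeq windows (GRCm38.p6) were at hand for 31 of the 40 genes and, of the choroid plexus markers, for Kcnj13, Kl, Otx2 and Prlr. The motif was in 1 of the 9 windows of these 4 genes, and in 7.06% of all 32851 windows. The match, a description and not a site, lay in 1 of 4 windows of Otx2 itself, shown because it was the 1 window of these genes that held the motif, with the reverse complement of the motif in capitals at base 40. The window is on the minus strand of chr14:48665060-48665359, a position in GRCm38.p6 and not in the build of the deposited table.
Otx2: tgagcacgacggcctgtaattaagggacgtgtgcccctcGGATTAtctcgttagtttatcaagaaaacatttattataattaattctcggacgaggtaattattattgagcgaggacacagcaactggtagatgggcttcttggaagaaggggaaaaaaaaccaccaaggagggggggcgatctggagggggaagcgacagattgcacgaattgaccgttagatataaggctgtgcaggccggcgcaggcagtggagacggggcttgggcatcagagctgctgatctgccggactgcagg

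The spread between replicates of 1 group was larger for most of these genes than for the average gene. The within-group SD of log2 CPM, which is counts scaled to library size with TMM factors, had a median of 0.62 over the 35 members that passed the filter on low counts, against 0.19 over all 17668 genes tested. It exceeded the median of all tested genes in 34 of the 35 and their 95th percentile of 0.90 in 15. The members were chosen with earlier results of these data known, so this comparison is a description and not a test. Adora2a ranked 9, Ttr 13, Drd2 14, Clic6 20 and Rgs9 65 by this SD, so 5 members were among the 100 most variable genes. Enpp2, with an SD of 0.18, was the 1 member below the median of all genes. By region the median SD was 1.92 for striatum, 1.28 for hypothalamus and 0.67 for choroid plexus, and 0.47, 0.45 and 0.40 for hippocampus, cortex and thalamus.

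**Figure D4:**
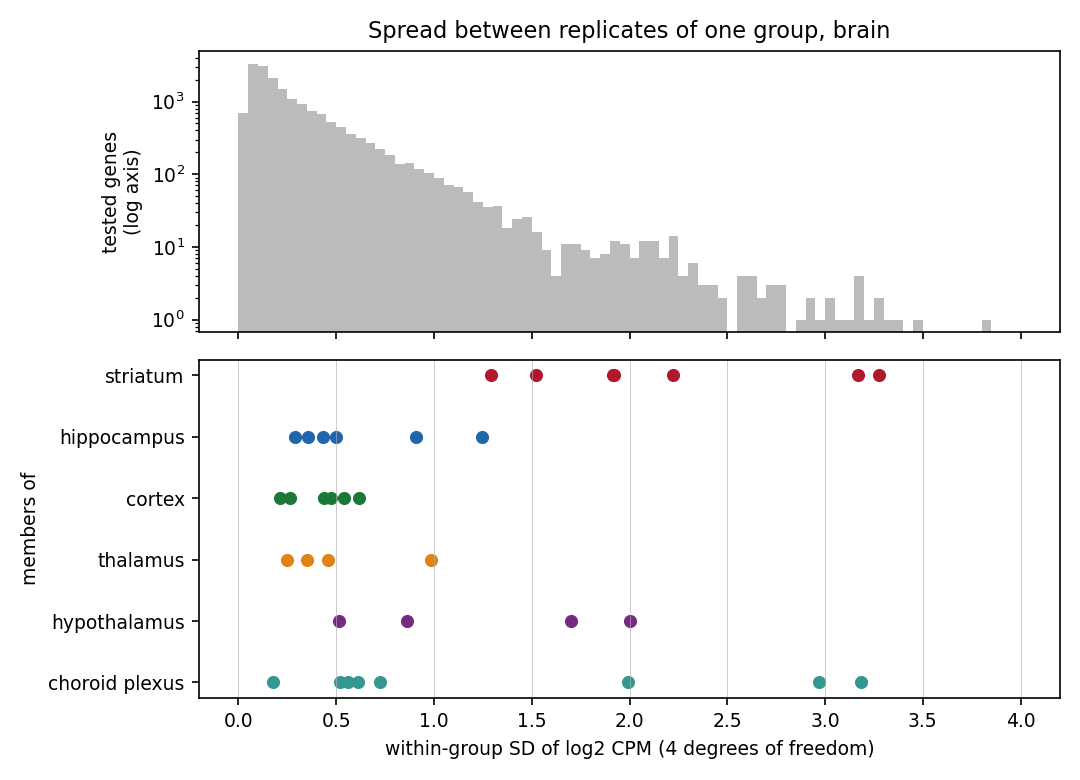
The upper panel is a histogram of the within-group SD of log2 CPM over the 17668 genes tested in brain, with gene number on a log axis. The lower panel marks the 35 tested members by region, and the striatal points lie between 1.29 and 3.28, in the upper tail.

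Stress was then compared with control in the same 6 libraries. No marker passed in edgeR's quasi-likelihood test over all genes. Of 35 tested members 0 were higher and 0 lower at an adjusted p of 0.05, against 1 of 17668 genes in all (0.00566%), which was not a member. An unadjusted p under 0.05 was reached by 12 of the 35, against 7.54% of all genes. Because the members were chosen with earlier results of these data known, their shares beside those of all genes are no test of the list. DESeq2 called 5 members higher and 0 lower, against 0.301% and 0.129% of all genes. With limma-voom 0 members were called and 11 had an unadjusted p under 0.05, against 1340 of 17668 genes. Avp, Oxt, Hcrt, Pmch and Folr1 did not pass the filter on low counts and were not tested. The groups of 7 members did not overlap with stress higher (Lhx9, Trh, Kl, Kcnj13, Otx2, Sostdc1 and Prlr), against 7.21% of all genes. For Kcnj13 and Sostdc1 the gap between the groups lay within counting error. Rorb was the 1 member with every stress library lower, against 6.64% of all genes. Otx2 entered the test through the stress libraries, where it is high.

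Control and stress libraries of the same number deviated from their group means together, least for replicate 2 (correlation 0.140 over all tested genes). The fit was repeated with that number as a block, as an alternative. The labels state no pairing, and the sample codes of same-numbered control and stress libraries differ. With the block, 4 of the 35 members were higher and 0 lower, against 0.0962% and 0.0283% of all genes. They were C1ql2 (log2 fold change 2.21, edgeR adjusted p = 0.012 with the block and 0.602 without), Lhx9 (2.39, 0.0191 and 0.496), Trh (2.86, 0.0238 and 0.387) and Ttr (6.98, 0.0191 and 0.465). That pairing was read from these libraries, and the high striatal levels of both replicates numbered 3 are part of it, so these adjusted p values can be too small.

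For the striatum, the sign or size of the stress difference depended on which library was left out. All 7 markers had negative log2 fold changes, from -0.79 for Rgs9 to -0.30 for Rasd2, with SE between 0.80 and 1.72 (edgeR adjusted p of 0.924 or more). Drd2, for example, had 51.6 ± 86.7 TPM in control and 37.5 ± 49.95 TPM in stress (mean ± SD, n = 3 each). Without control replicate 3, all 7 turned positive, from 1.06 for Rasd2 to 4.61 for Drd2, and none passed. Without stress replicate 1, 5 of the 7 were at or just above 0. Without stress replicate 3, Drd2 was at -2.61 and Rgs9 at -2.54, and no striatal marker changed sign. Without control replicate 1 or 2, Drd2 was at -1.06, and without stress replicate 2 it was at -0.08. No striatal marker changed sign in these fits either. With both replicates numbered 3 left out, a choice made after seeing the data, all 7 were positive, from 0.004 for Pde10a to 2.48 for Drd2, and none passed.

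Cortical markers had negative log2 fold changes in 6 of 6, with a median of -0.39, against -0.003 over all genes tested. Rorb had 12.3 ± 2.84 TPM in control and 8.07 ± 1.06 TPM in stress, and its log2 fold change was -0.63 with an SE of 0.17 (edgeR adjusted p = 0.53). Tbr1 had 90.6 ± 12.8 and 69.4 ± 11.8 TPM (-0.40 ± 0.14, edgeR adjusted p = 0.602). The value for Fezf2 was -0.01 ± 0.33, and it changed sign without control replicate 1 or 2 or stress replicate 2 or 3. The 14 further cortical genes had a median of -0.33, with 0 called.

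Hippocampal and thalamic markers had median log2 fold changes of 0.21 and 0.45. C1ql2 had 6.12 ± 5.26 TPM in control and 25.9 ± 14.8 TPM in stress (log2 fold change 2.07 ± 0.72, edgeR adjusted p = 0.602). Prox1 had 6.95 ± 1.52 and 9.75 ± 2.001 TPM (0.47 ± 0.19, edgeR adjusted p = 0.657), while Wfs1, Dkk3 and Zbtb20 had 0.04, -0.09 and 0.07. Lhx9 had 0.357 ± 0.268 TPM in control and 1.78 ± 1.07 TPM in stress (2.31 ± 0.62, edgeR adjusted p = 0.496), and Tcf7l2, Prkcd and Lef1 had 0.67, 0.24 and 0.04. The 13 tested genes of each further list of these regions had medians of 0.05 and 0.11, with 0 called. In each list 9 were positive and 4 negative.

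Hypothalamic and choroid plexus markers had positive log2 fold changes in 4 of 4 and 8 of 8 tested members. Trh had 2.54 ± 0.946 TPM in control and 20.95 ± 14.5 TPM in stress (3.01 ± 0.57, edgeR adjusted p = 0.387). Arhgap36, Ecel1 and Agrp had 1.34 ± 1.09, 0.65 ± 0.96 and 0.35 ± 0.42. Ttr had 6.23 ± 8.60 and 757 ± 697 TPM, and its log2 fold change was 6.94 ± 1.75 (edgeR adjusted p = 0.465). Prlr had 0.273 ± 0.0895 and 1.24 ± 0.627 TPM (2.17 ± 0.46, edgeR adjusted p = 0.387). Otx2 had 0.134 ± 0.232 and 2.23 ± 0.542 TPM (3.92 ± 0.98, edgeR adjusted p = 0.458). Kl, Kcnj13, Clic6, Sostdc1 and Enpp2 had 1.27, 1.19, 1.17, 1.42 and 0.09. The 10 tested genes of the further hypothalamic list were divided, with 6 positive, 4 negative, a median of 0.46 and 0 called, and Cartpt had -0.23 ± 0.75.

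The median over the 8 choroid plexus members was 1.34, and over 15 tested genes of the further choroid plexus list it was 1.33, with 14 positive, 1 negative and 0 called. DESeq2 called Lhx9, Trh, Ttr, Kl and Prlr (DESeq2 adjusted p = 0.00666, 1.25e-06, 0.0117, 0.0156 and 0.000491), and edgeR called no member in any of the 6 fits that left out 1 library. The Ttr difference rests on stress replicates 2 and 3, with 1390 and 871 TPM against 10.2 TPM in stress replicate 1.

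**Figure D5:**
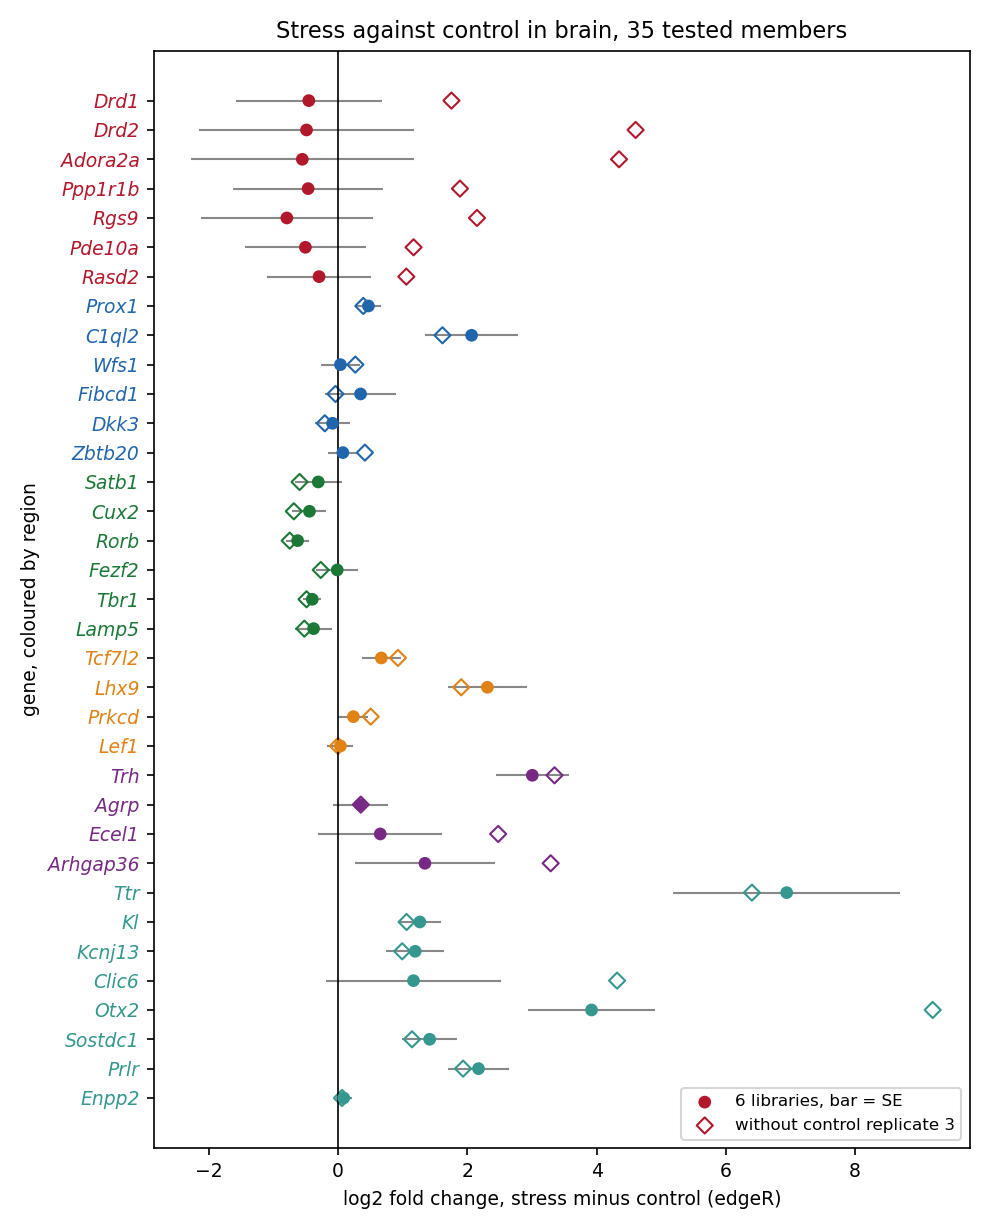
Filled circles give the log2 fold change of stress minus control over the 6 brain libraries for the 35 tested members, with SE bars, and open diamonds the value without control replicate 3. The 7 striatal genes move from below 0 to above 0 when that library is left out, and Otx2 moves to 9.203, where both remaining control libraries have 0 counts.

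Some of these genes are active outside the brain as well. Of the 40, 13 were tested in liver and 28 in testis, and edgeR called 0 in either, against 1.63% of genes in liver and 0.0201% in testis. An unadjusted p under 0.05 was found for 3 of the 13 members in liver, against 2445 of all 14253 genes tested. In testis it was found for 3 of the 28, against 2337 of 19915. DESeq2 called 0 members in both tissues, against 3.52% and 0.189% of genes. Prlr, which liver makes in quantity, had 8.25, 6.49, 9.87, 6.56, 5.50 and 4.56 TPM there, and the log2 fold change there was -0.57 ± 0.18 (edgeR adjusted p = 0.152, or 0.0419 when genes of low counts were kept). In testis Prlr had 2.73, 2.65, 3.40, 1.97, 1.199 and 2.22 TPM (-0.62 ± 0.19, edgeR adjusted p = 0.422). The difference between tissues was not tested.

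Members with a median of at least 5 TPM outside the brain were described there too. Ttr had 11140 ± 2596 TPM in control liver and 9029 ± 1144 TPM in stress liver (log2 fold change -0.30 ± 0.18, edgeR adjusted p = 0.426). Enpp2, Prox1, Wfs1 and Zbtb20 in liver had log2 fold changes of 0.01, -0.20, -0.02 and 0.11. Testis had 113 to 146 TPM of Prkcd, 21.9 to 25.99 of Lef1, 8.38 to 13.8 of Folr1 and 5.92 to 8.51 of Drd2, and their log2 fold changes were 0.06, 0.11, 0.37 and -0.16. Pde10a, Enpp2 and Agrp in testis had -0.27, -0.11 and 0.32.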

How the data were processed

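RNA was sequenced in 18 mouse libraries, 3 in each of 6 groups. Per the labels' protocols, a stranded total RNA kit was used, and per the submitters' processing notes the build was mm39. For aligner, counter, strand setting and annotation, the sources used here give nothing. The authors deposited raw counts, TPM and FPKM per gene. The deposited FPKM values equal counts over the column total and 1 length per gene, and the deposited TPM columns sum to 1000000. Total counts were 27.85 to 36.5 megacounts per library, which limits precision for genes of few counts. Symbols came from GENCODE M21 by gene identifier (34362 of 34932 genes), and all 40 members matched.

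Each tissue was fitted alone in edgeR 4.0.16 (R 4.3.3) on the counts, stress minus control (TMM, filterByExpr, quasi-likelihood test, Benjamini-Hochberg adjustment over all genes, threshold 0.05). The SE is the log2 fold change over the square root of the F statistic. The fits were tested on simulated data. Intervals for single libraries are exact and cover counting error. Alternatives were DESeq2 1.42.0, its size factors, no filter, limma 3.58.1 on counts or on log2(TPM + 0.5), all 18 libraries in 1 fit, the replicate block and leaving out each library. Deviations from the group mean of same-numbered control and stress brain libraries correlated across genes with 0.295, 0.140 and 0.407. The block treats these numbers as pairs, although the labels state no pairing. Members and lists were chosen with earlier results of these data known. All members may be named, and of each further list the 4 genes of highest mean TPM in brain, of which 1 is not reported here. Outside the brain, members with a median of at least 5 TPM and Prlr are named.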

Additional observations from a re-analysis of the deposited data

How the results depend on the processing

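Most values for members kept their direction and their side of the threshold: 430 of 490 alternative values over 35 members in brain, 50 of 60 over 6 in liver and 80 of 80 over 8 in testis. The other 60 and 10 were 51 and 9 changes of sign and 9 and 1 newly called values. DESeq2 called 84 genes higher and 36 lower in brain, with 5 members higher. The replicate block called 17 higher and 5 lower, with 4 members higher, and changed no other member's call. Without the filter on low counts 2 genes were higher, with limma-voom 0, and with all 18 libraries in 1 fit 2 higher and 1 lower. Leaving out 1 library gave 0 to 1 higher and 0 lower, and leaving out both brain libraries numbered 3, added after seeing the data, gave 1 lower.

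In liver the block gave 261 genes higher and 214 lower, DESeq2 449 and 370, no filter 450 and 408 (1 member lower, Prlr), and leaving out 1 library 15 to 157 and 16 to 134. In testis the block gave 2 higher, DESeq2 30 and 30, no filter 10 and 15, and leaving out 1 library 0 to 8 and 0 to 13. The log2 ratio of the highest to the lowest library was 0.73 for hippocampus by the median deviation, against 0.48 in TPM, and 1.92 in CPM and 1.89 by the median deviation for choroid plexus, against 3.11 in TPM. The cause was not tested.

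Signs changed as follows, with log2 fold changes. With the block, limma-voom and limma on TPM, Drd2 was at 0.70, 1.15 and 1.09, Adora2a at 0.60, 0.74 and 0.78, and Ppp1r1b at 0.0083, 0.018 and 0.037. Wfs1 was at -0.014 with the block and -0.014 with limma-voom, and Fezf2 at 0.0018 with limma on TPM. With both libraries numbered 3 left out, Drd1, Drd2, Adora2a, Ppp1r1b, Rgs9, Pde10a and Rasd2 were at 0.45, 2.48, 2.34, 0.48, 0.40, 0.0042 and 0.14, and Enpp2 at -0.065. Leaving out 1 brain library gave ranges of -1.76 to 1.75 for Drd1, -2.61 to 4.61 for Drd2, -2.57 to 4.35 for Adora2a, -1.87 to 1.89 for Ppp1r1b and -2.54 to 2.15 for Rgs9. The ranges were -1.67 to 1.17 for Pde10a, -1.21 to 1.06 for Rasd2, -0.20 to 0.31 for Wfs1, -0.041 to 1.28 for Fibcd1 and -0.47 to 0.12 for Dkk3. They were -0.077 to 0.41 for Zbtb20, -0.37 to 0.18 for Fezf2, -0.17 to 0.16 for Lef1 and -0.037 to 0.17 for Enpp2. In liver they were -0.44 to 0.18 for Prox1, -0.25 to 0.10 for Wfs1, -0.047 to 0.25 for Zbtb20 and -0.15 to 0.27 for Enpp2. Fits that leave out 1 library, with 2 left in its group, take the spread from the 5 that remain. The fit without both libraries numbered 3 takes it from fewer. Depth limits Avp, Oxt, Hcrt, Pmch, Folr1, Otx2 and Arhgap36, which had fewer than 15 counts in most control libraries.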

Other observations

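Other cell types were read in the same brain libraries from short marker lists, with no member called by edgeR in any list without the replicate block. Markers of red blood cells and their precursors summed to 627, 411, 1041, 306, 256 and 452 TPM in control replicates 1 to 3 and stress replicates 1 to 3, and 5 of 5 were highest in control replicate 3. Their median log2 fold change was -0.91, and with the block 2 of 5, the globin genes Hba-a1 and Hbb-bs, were lower (edgeR adjusted p = 0.012 and 0.033, but 0.532 and 0.653 without it), against 0.0283% of all genes. The block was read from these same libraries. Both have near-identical copies that can share reads, so the values of single globin genes are uncertain.

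Markers of the meninges, the membranes around the brain, summed to 2035, 1910, 1091, 3053, 2412 and 1414 TPM, with 6 of 10 highest in stress replicate 1. Most of each sum was 1 gene, Ptgds, with 1890, 1747, 1019, 2867, 2212 and 1318 TPM. Astrocyte markers summed to 1795 to 1979 TPM in control and 1980 to 2236 TPM in stress. Microglia markers summed to between 225 and 275 TPM. Endothelial markers summed to 192 to 194.7 TPM in control and 168.9 to 181.9 TPM in stress. The 6 genes did not fall as a set, with 4 positive and 2 negative log2 fold changes and a median of 0.03. Among them Cldn5, a tight junction protein, had 82.7, 82.7, 85.5, 58.1, 57.3 and 58.5 TPM, a log2 difference of -0.55 ± 0.08 (edgeR adjusted p = 0.351). Markers of cerebellum, olfactory bulb and amine neurons of the brainstem were low, at 30.9 to 65.03, 8.28 to 20.6 and 8.60 to 16.3 TPM. Pituitary and male germ cell markers summed to at most 1.61 and 3.83 TPM.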
